A study of Mus musculus with 16 samples.

Results

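Chemokines are small secreted proteins that attract cells, and their receptors are G protein-coupled receptors of the responding cells. The genes described here are those whose row name in the count table was Ccl, Ccr, Cxcl, Cxcr, Cx3cl, Cx3cr or Ackr followed by a number and at most 1 letter. That rule found 45 of the 25745 genes in the table, of which 28 are ligands and 17 are receptors. The ligands comprised 15 CC genes, 12 CXC genes and Cx3cl1, and the receptors comprised 8 CC, 5 CXC and 3 atypical receptors and Cx3cr1.

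Expression was measured by RNA-seq in 6DT1 cells, a mouse mammary cancer line labelled with the strain FVB/N1. All cells had been transduced with a lentivirus, carrying either CLIC4, a member of the chloride intracellular channel family, or an empty vector. Cells of each kind were harvested without treatment or 24 h after 1 µM hydrogen peroxide (H2O2), which gave 4 groups of 4 libraries: untreated lentivirus (libraries 1 to 4), H2O2-treated lentivirus (5 to 8), untreated empty vector (9 to 12) and H2O2-treated empty vector (13 to 16). The labels disagree on genotype: per sample, the empty vector is described as a CLIC4 knockout and the CLIC4 lentivirus as wild type, whereas the design text of the series names no knockout. How many clones a vector group holds is not given in the labels, and neither is whether its libraries came from separate cultures. The p-values therefore measure the spread between these libraries, which may be technical, and the vector cannot be told apart from any other difference between the cell populations that carry it.

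Total counts ran from 47.1 to 61.9 M per library. Levels are CPM, the counts per 1 M counts of a library, scaled by the trimmed mean of M values (TMM), and FPKM is used where genes are compared with each other. Clic4 stood at 222 to 258 CPM in the 8 lentivirus libraries, at 39.5 to 45.1 CPM in 7 empty-vector libraries and at 138 CPM in library 11. Library 11, labelled untreated empty vector, stood apart: its correlation with the other libraries of its group, over genes on the log2 scale, was at most 0.879, against at least 0.9966 for every other pair within a group. Results of the tested genes that use the untreated empty-vector group are therefore given with and without it. The epithelial keratins Krt8, Krt18 and Krt19 were abundant in all groups (means of 78.7 to 614 CPM without library 11), whereas the epithelial adhesion genes Epcam and Cdh1 were at no more than 0.126 CPM in any library but 11, which held 13.0 and 1.53 CPM. Ptprc, which encodes the pan-leukocyte protein CD45, was at 0 CPM in all 8 empty-vector libraries and at no more than 0.0536 CPM in the lentivirus libraries.

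As background, CC and CXC chemokines are named for the spacing of their first cysteines. Inflammatory ligands such as Ccl2 and Cxcl1 are induced through NF-κB by cytokines and draw monocytes and neutrophils, and in mammary tumours both tumour cells and stroma can make them. Most conventional receptors couple to Gi proteins and are best known from leukocytes, although tumour cells can carry some of them, Cxcr4 in particular. Atypical receptors bind chemokines without classical G protein signalling and remove them from the surroundings.

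Of the 45 genes, 15 had a mean above 1 CPM in at least 1 group, 11 of them ligands and 4 receptors. Without library 11 the number was 12, because Ccl8, Cxcl2 and Cxcl3 passed 1 CPM only through that library. The genes nearest to this level were Ccl8 (highest group mean 1.06 CPM) and Cxcl10 (0.946 CPM) with 16 libraries, and Ccl28 (1.17 CPM) and Ccl27a (0.751 CPM) without library 11. A filter on low counts left 15 genes for testing, the same ones with and without library 11, and took out 30. The tested genes included Ccl27a and Cxcl16, which lay below 1 CPM, and not Cxcl2 and Cxcl3. At the other end, 17 genes had at most 16 counts each over all 16 libraries.

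Several of the genes that carry the results lie side by side. Cxcl5, Cxcl3, Cxcl15, Cxcl1 and Cxcl2 lie within 146.6 kb of chromosome 5 (90759360 to 90905938, mm10, plus strand), and Ccl2, Ccl7, Ccl11 and Ccl8 lie within 81.2 kb of chromosome 11 (82035571 to 82116799, plus strand). Both clusters hold genes that were far higher in library 11 than elsewhere. The proximal promoters of 3 of them are shown because the longest run of letters that all 3 share, the 11 bases GGGAATTTCCC given in capitals, has the form of a site for NF-κB. Each sequence is the plus strand of GRCm38.p6 (RefSeq), from 150 to 31 bases before the gene's start.
Cxcl1, chr5:90891095-90891214: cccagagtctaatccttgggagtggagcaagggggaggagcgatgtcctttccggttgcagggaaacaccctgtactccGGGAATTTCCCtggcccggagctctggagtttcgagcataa
Cxcl2, chr5:90903749-90903868: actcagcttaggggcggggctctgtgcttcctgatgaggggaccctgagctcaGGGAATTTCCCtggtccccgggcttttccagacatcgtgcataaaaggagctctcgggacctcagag
Cxcl3, chr5:90785951-90786070: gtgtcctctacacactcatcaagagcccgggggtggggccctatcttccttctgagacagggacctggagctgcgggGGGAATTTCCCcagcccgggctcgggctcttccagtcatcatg
The run began 71 bases before the start of Cxcl1, 97 before that of Cxcl2 and 73 before that of Cxcl3. Searched on both strands, the same 11 letters occurred in 14 of 32851 RefSeq promoter windows of 300 bases (0.0426%), among them these 3. The run was taken from these 3 promoters, so their matches were fixed in advance and are no evidence of enrichment. Windows were found for 32 of the 45 genes (35 windows), and besides these 3 none held the run. Ccl2, Ccl7, Cxcl5, Ccr4 and others had no window and were not searched. A match is a description of the letters and not evidence of a bound site.

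**Figure D1:**
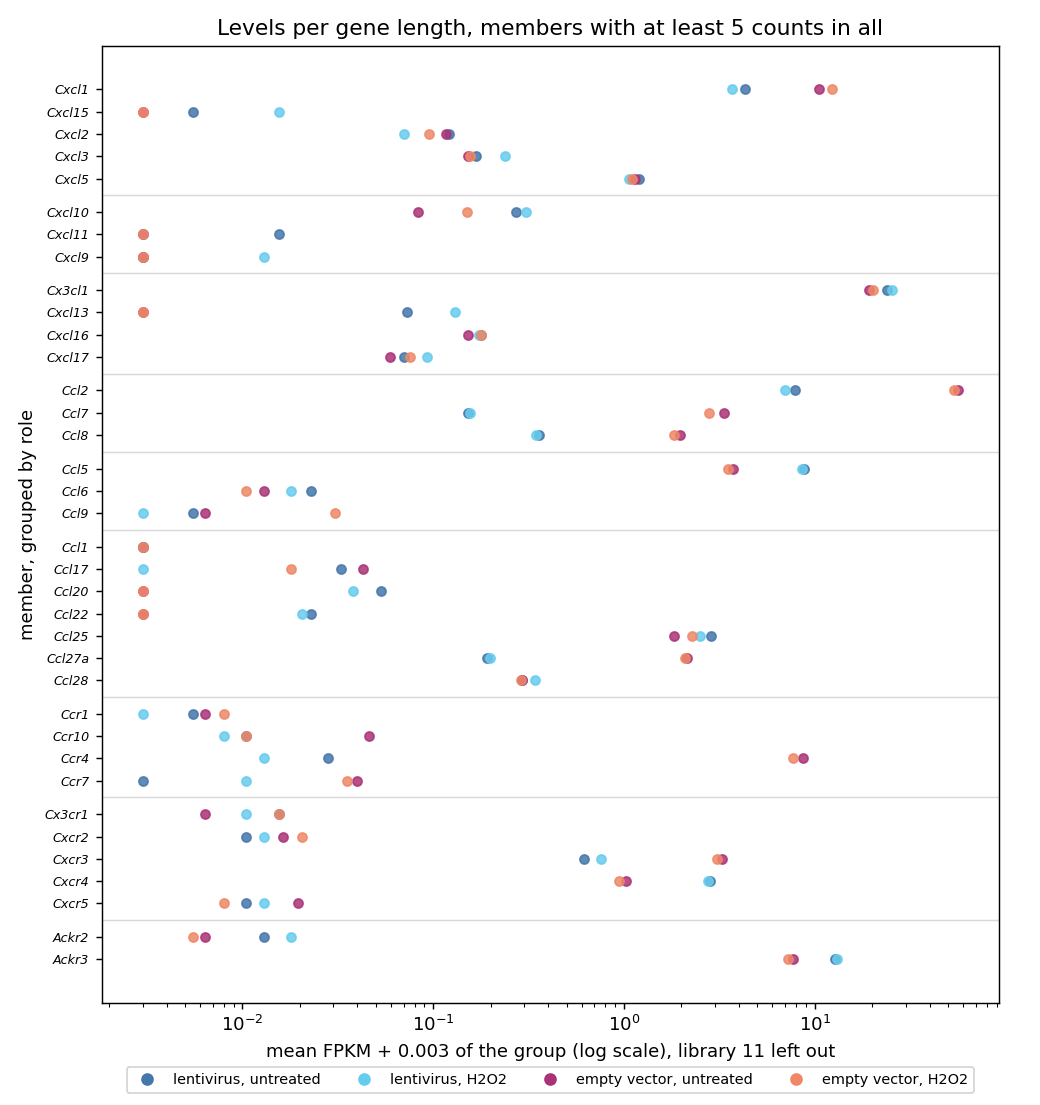
Mean FPKM plus 0.003 in each group, on a log axis, of the 36 genes with at least 5 counts over all libraries, with library 11 left out of the means and genes grouped by role. Ccl2 with the empty vector and Cx3cl1 in every group lie furthest to the right, and most receptors lie towards the left.

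Per unit of gene length and without library 11, Ccl2 was the most abundant chemokine transcript of the empty-vector cells, with 56.4 ± 4.70 FPKM untreated (SD, n = 3) and 53.4 ± 9.81 FPKM after H2O2 (SD, n = 4). Cx3cl1 came next, at 19.2 ± 0.269 and 20.1 ± 0.739 FPKM, followed by Cxcl1 at 10.5 ± 0.354 and 12.3 ± 0.670 FPKM. In the lentivirus cells the order differed: Cx3cl1 led with 24.0 ± 1.19 FPKM untreated and 25.3 ± 0.523 FPKM after H2O2 (SD, n = 4 each). It was followed there by the receptor Ackr3, at 12.8 ± 0.634 and 13.0 ± 0.328 FPKM, and then by Ccl5, at 8.77 ± 0.910 and 8.60 ± 1.40 FPKM, and Ccl2, at 7.91 ± 1.33 and 7.02 ± 1.79 FPKM. The last of these neighbours, Ccl5 and Ccl2, lay within each other's spread. Among receptors of the empty-vector cells, Ccr4 (8.70 ± 0.572 FPKM untreated, SD, n = 3) and Ackr3 (7.73 ± 0.477 FPKM) led and Cxcr3 (3.26 ± 0.133 FPKM) followed.

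The first comparison asked which of these genes differed between empty-vector and lentivirus cells. In untreated cells with 16 libraries, 8 of the 15 tested genes were called higher with the empty vector, against 29% of all genes tested, and 4 were called lower, against 24.3% (edgeR's quasi-likelihood test, Benjamini-Hochberg adjusted p under 0.05). With library 11 left out, 7 were called higher and 5 lower, against 37% and 37.3% of all genes. In H2O2-treated cells 6 were called higher and 4 lower (22.1% and 20% of all genes), and 7 and 4 with library 11 left out of the fit (36.6% and 37.2%). The share of the 15 genes called higher, 40.0% to 53.3%, was thus above that of all genes in each fit, and the share called lower, 26.7% to 33.3%, lay on either side of it. The 53.3% includes Cxcl5, whose call ended without library 11. With only 15 genes and no test of the set, nothing about the family is read from these shares. In bulk libraries, fewer cells with a transcript and less of it per cell cannot be told apart. Both comparisons called 10 of the 15 genes in the same direction with 16 libraries and 11 without library 11. The share of all genes called so in both was not counted, so nothing is read from these 2 numbers. The median log2 change of the 15 genes was 2.06 in untreated cells with 16 libraries but -0.06 without library 11, and 0.10 and 0.11 in treated cells, where the medians of all genes lay between -0.02 and 0.03.

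**Figure D2:**
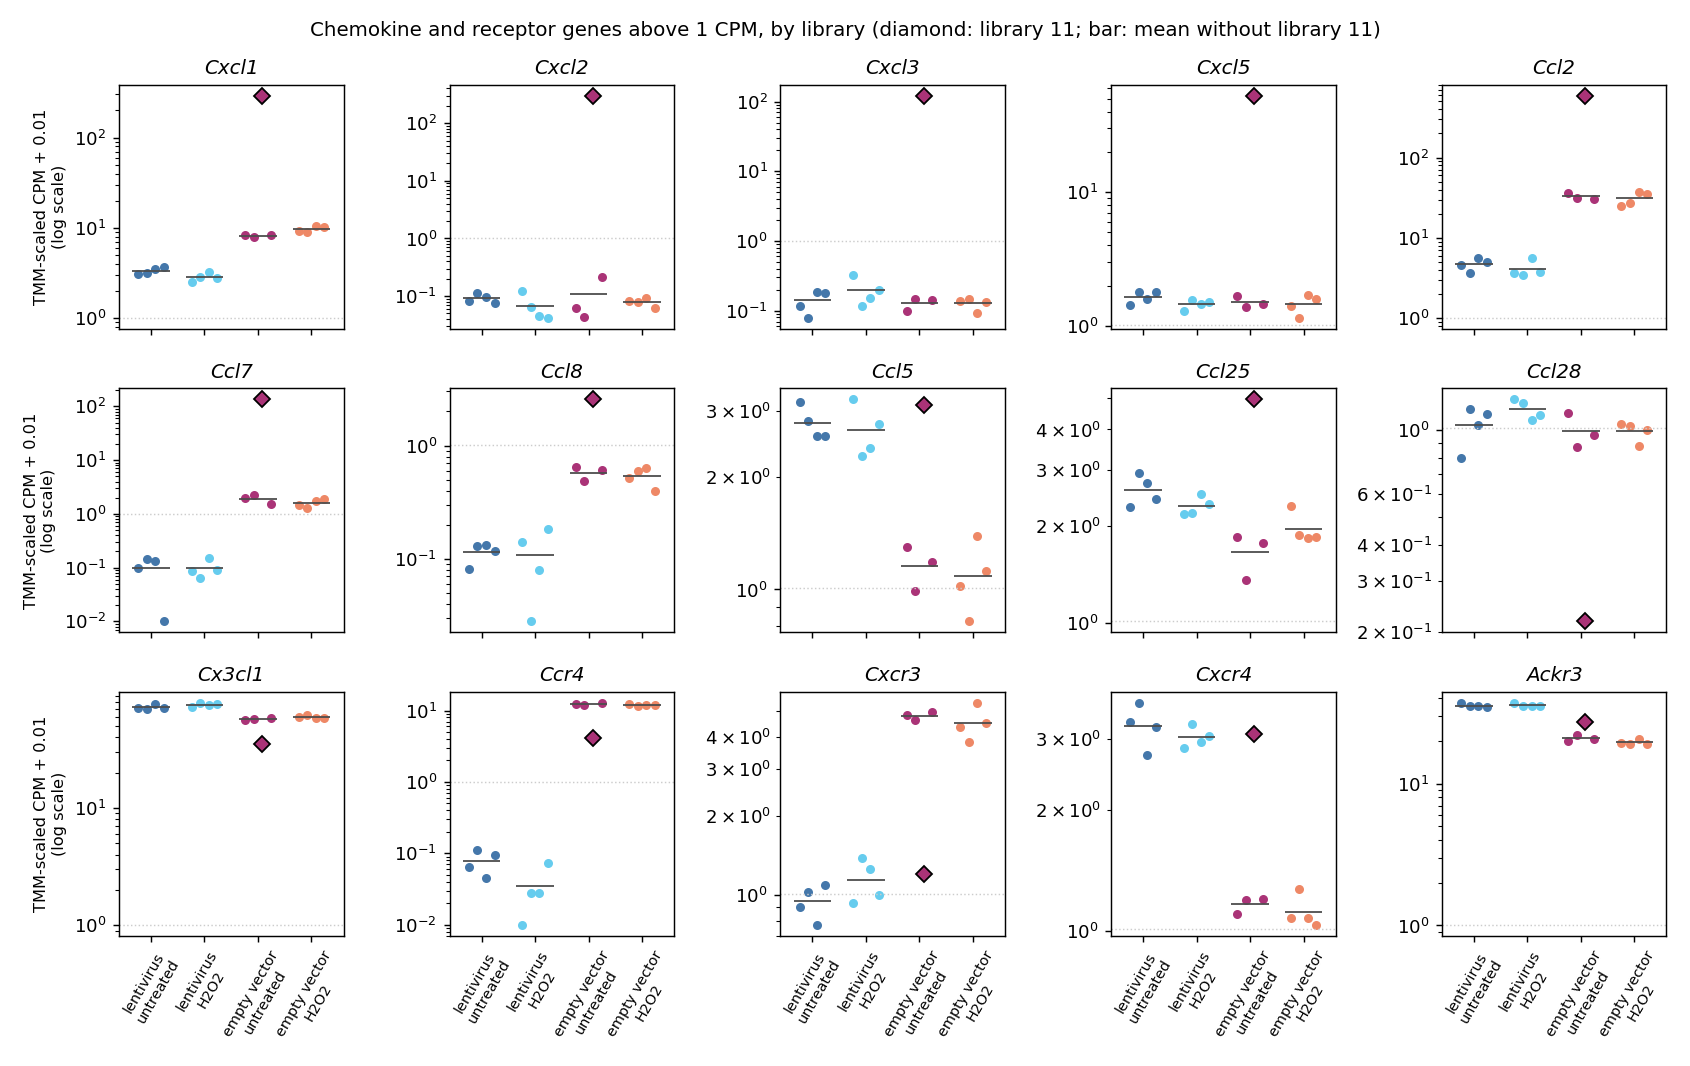
TMM-scaled CPM plus 0.01 of the 15 genes above 1 CPM, by library, on log axes that differ between panels. Diamonds mark library 11, bars are group means without it, and the dotted line marks 1 CPM where the axis reaches it. Ccr4 reached 11.5 to 12.8 CPM in 7 empty-vector libraries and no more than 0.103 CPM in the lentivirus libraries.

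Among ligands that draw neutrophils through Cxcr2, Cxcl1 was the highest. Cxcl1 stood at 3.09, 3.15, 3.54 and 3.70 CPM in the untreated and at 2.52, 2.88, 3.28 and 2.77 CPM in the treated lentivirus libraries. With the empty vector it reached 8.38, 8.01 and 8.30 CPM in libraries 9, 10 and 12, 288 CPM in library 11, and 9.29, 9.11, 10.5 and 10.3 CPM after H2O2. Every empty-vector library was above every lentivirus library. In untreated cells the log2 change was 4.53 ± 1.05 (SE) (edgeR adjusted p = 0.00246), and 1.29 ± 0.0887 (SE) without library 11 (edgeR adjusted p = 7.81e-11). In treated cells it was 1.77 ± 0.956 (SE) and not called with 16 libraries (edgeR adjusted p = 0.157), but called without library 11 at nearly the same size, 1.78 ± 0.0837 (SE) (edgeR adjusted p = 2.00e-13).

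Cxcl5, another Cxcr2 ligand, had 1.43, 1.79, 1.57 and 1.79 CPM in the untreated and 1.28, 1.55, 1.46 and 1.5 CPM in the treated lentivirus libraries. The empty-vector values were 1.68, 1.39 and 1.45 CPM in libraries 9, 10 and 12 and 52.3 CPM in library 11, and 1.39, 1.14, 1.71 and 1.59 CPM after H2O2. The groups overlapped in both conditions. The untreated call of Cxcl5 (log2 change 3.10 ± 0.987 (SE), edgeR adjusted p = 0.0168) ended without library 11, where the change was -0.13 ± 0.151 (edgeR adjusted p = 0.463). In treated cells the change was 0.01 ± 0.953 (edgeR adjusted p = 0.994).

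Cxcl2 and Cxcl3, the close relatives of Cxcl1, were near the detection limit everywhere except in library 11. Cxcl2 had 2 to 6 counts in each lentivirus library, 3 to 5 in each treated empty-vector library and 3, 2 and 11 counts in libraries 9, 10 and 12, but 11419 counts in library 11. Cxcl3 had 4 to 17 counts in each lentivirus library, 5 to 8 in the empty-vector libraries other than 11, and 4631 counts in library 11. In every other library the Cxcl1 message was therefore present while Cxcl2 and Cxcl3 stayed at or below 0.320 CPM. Cxcl15, the fifth gene of this group, had 8 counts in all 16 libraries.

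The 3 tested genes of the monocyte chemoattractant group, Ccl2, Ccl7 and Ccl8, were called higher with the empty vector in both conditions with 16 libraries and without library 11. Ccl2, the main ligand of Ccr2, was at 4.61, 3.68, 5.59 and 5.02 CPM in the untreated and at 3.69, 3.43, 5.61 and 3.74 CPM in the treated lentivirus libraries. Its empty-vector values were 36.0, 31.9 and 30.8 CPM in libraries 9, 10 and 12, 585 CPM in library 11 and 24.9, 27.4, 36.9 and 35.2 CPM after H2O2. No empty-vector library came near the lentivirus range. The untreated log2 change was 5.18 ± 0.913 (SE) with 16 libraries (edgeR adjusted p = 3.03e-04) and 2.80 ± 0.182 (SE), or 6.99-fold, without library 11 (edgeR adjusted p = 9.38e-09). After H2O2 the change was 2.92 ± 0.830 (edgeR adjusted p = 0.0109), or 7.55-fold. The annotated span of Gm17268 overlaps that of Ccl2. Overlap of exons was not examined and strandedness is not given, so the Ccl2 counts may hold reads of both.

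Ccl7, which like Ccl2 attracts monocytes, had 0.0893, 0.138, 0.124 and 0 CPM in the untreated and 0.0753, 0.0541, 0.140 and 0.0796 CPM in the treated lentivirus libraries. It reached 1.94, 2.28 and 1.49 CPM in libraries 9, 10 and 12, 134 CPM in library 11 and 1.45, 1.28, 1.74 and 1.89 CPM in the treated empty-vector libraries. All empty-vector libraries were higher than all lentivirus libraries, in which no count exceeded 8. In untreated cells the log2 change was 8.55 ± 1.64 (SE) (edgeR adjusted p = 5.88e-04), and 4.35 ± 0.341 (SE) without library 11 (edgeR adjusted p = 6.02e-10). In treated cells it was 4.15 ± 1.56 (SE), at the edge of the threshold with 16 libraries (edgeR adjusted p = 0.0455), and 4.15 ± 0.333 (SE) without library 11 (edgeR adjusted p = 7.74e-10). The 16-library call of treated cells ended when any 1 of libraries 1 to 8 or 13 to 16 was left out (edgeR adjusted p = 0.0510 to 0.0977), with no count filter (0.0508) and on log2(FPKM + 1) with and without a filter (limma adjusted p = 0.144 and 0.223).

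Ccl8, the third of these ligands, stood at 0.0714, 0.120, 0.124 and 0.108 CPM in the untreated and at 0.132, 0.0180, 0.0701 and 0.175 CPM in the treated lentivirus libraries. The empty-vector libraries held 0.635, 0.473 and 0.595 CPM (9, 10 and 12), 2.54 CPM (11) and, after H2O2, 0.507, 0.587, 0.624 and 0.388 CPM. The groups did not overlap in either condition, although each lentivirus library held only 1 to 11 counts. Its log2 change in untreated cells was 3.27 ± 0.597 (SE) (edgeR adjusted p = 4.02e-04), and 2.40 ± 0.372 (SE) without library 11 (edgeR adjusted p = 8.77e-06). After H2O2 it was 2.38 ± 0.599 (edgeR adjusted p = 0.00507). Ccl11, the eosinophil chemoattractant eotaxin between Ccl7 and Ccl8 on chromosome 11, had 1 count in all 16 libraries.

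Of the ligands of the macrophage inflammatory group, Ccl5 alone was above 1 CPM, and it was lower with the empty vector. Ccl5, which attracts T cells and monocytes, was at 3.16, 2.82, 2.56 and 2.56 CPM in the untreated and at 3.22, 2.27, 2.38 and 2.77 CPM in the treated lentivirus libraries. In the empty-vector cells it was at 1.29, 0.980 and 1.17 CPM in libraries 9, 10 and 12, at 3.11 CPM in library 11 and at 1.01, 0.811, 1.38 and 1.11 CPM after H2O2. On this TMM scale library 11 lay within the lentivirus range and the other 7 empty-vector libraries lay below it. In FPKM library 11, at 6.99, lay below every lentivirus library (lowest 7.28). The untreated log2 change was -0.78 ± 0.30 (SE) (edgeR adjusted p = 0.0420) with 16 libraries, a call that ended when any 1 of libraries 1 to 4, 6 to 10, 12, 13 or 16 was left out (edgeR adjusted p = 0.0504 to 0.106), with RLE scaling (0.0593) and with the compared groups alone (0.157). It was -1.28 ± 0.170 (SE) without library 11 (edgeR adjusted p = 1.26e-06). In treated cells it was -1.30 ± 0.304 (edgeR adjusted p = 0.00304). Ccl4, Ccl6 and Ccl9 had 2, 10 and 12 counts in all 16 libraries.

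Cx3cl1, or fractalkine, a ligand held at the cell surface until it is shed, was slightly lower with the empty vector. It stood at 71.3, 70.0, 77.2 and 71.3 CPM in the untreated and at 72.1, 78.3, 75.4 and 76.2 CPM in the treated lentivirus libraries. Its empty-vector levels were 56.5, 57.6 and 57.8 CPM in libraries 9, 10 and 12, 34.9 CPM in library 11 and 59.1, 61.4, 58.7 and 57.9 CPM after H2O2. The groups did not overlap. The log2 change was -0.49 ± 0.122 (SE) in untreated cells (edgeR adjusted p = 0.00408), and -0.34 ± 0.0376 (SE), a 1.26-fold difference, without library 11 (edgeR adjusted p = 1.05e-07). In treated cells it was -0.35 ± 0.122 (edgeR adjusted p = 0.0316), and -0.35 ± 0.0345 without library 11 (edgeR adjusted p = 1.82e-08). The 16-library call of treated cells ended when any 1 of libraries 6 to 8 or 13 to 16 was left out (edgeR adjusted p = 0.0527 to 0.0755) and with no count filter (0.105). It also ended on log2(FPKM + 1) with and without a filter (limma adjusted p = 0.118 and 0.184) and on log2(FPKM + 0.1) (limma adjusted p = 0.130). The untreated call ended with the compared groups alone (0.0538).

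Ccl25, Ccl27a and Ccl28, of the other CC ligands, are best known from epithelia. Ccl27a, a skin-homing chemokine, was below 1 CPM in every library: 0.0215 to 0.106 CPM in the 8 lentivirus libraries and 0.570 to 0.980 CPM in the 8 empty-vector libraries, with library 11 the lowest of these. The groups did not overlap, and the log2 change was 3.51 ± 0.35 (SE) in untreated cells (edgeR adjusted p = 1.42e-06), 3.59 without library 11, and 3.90 ± 0.357 (SE) in treated cells (edgeR adjusted p = 5.84e-07). Ccl27a has near-identical copies in the mouse genome and is overlapped by Il11ra1, so its counts are uncertain.

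Ccl25, the thymus and gut chemokine, had 2.29, 2.92, 2.72 and 2.41 CPM in the untreated and 2.16, 2.18, 2.51 and 2.34 CPM in the treated lentivirus libraries. Its empty-vector values were 1.83, 1.35 and 1.77 CPM in libraries 9, 10 and 12, 4.95 CPM in library 11, and 2.30, 1.86, 1.82 and 1.84 CPM after H2O2. Library 11 was the highest of all libraries, and libraries 9, 10 and 12 were below every lentivirus library. The untreated change was not called with 16 libraries (log2 change -0.07 ± 0.306, edgeR adjusted p = 0.848) and was called without library 11 (-0.65 ± 0.137, edgeR adjusted p = 2.73e-04). The treated change was -0.23 ± 0.307 (edgeR adjusted p = 0.589) and was not called without library 11 either (edgeR adjusted p = 0.0957). Elavl1 overlaps Ccl25 in the annotation, so the counts may hold reads of both.

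Ccl28, a mucosal chemokine, was at 0.786, 1.17, 1.03 and 1.12 CPM in the untreated and at 1.26, 1.23, 1.07 and 1.11 CPM in the treated lentivirus libraries. With the empty vector it was at 1.13, 0.862 and 0.949 CPM in libraries 9, 10 and 12, at 0.207 CPM in library 11 and at 1.03, 1.02, 0.871 and 0.989 CPM after H2O2. It was not called in either condition (log2 change -0.36 ± 0.325, edgeR adjusted p = 0.357 untreated, and -0.26 ± 0.320, edgeR adjusted p = 0.567 treated), and without library 11 the untreated change was -0.06 ± 0.171 (edgeR adjusted p = 0.752). Cxcl16, the ligand of Cxcr6, ranged from 0.113 to 0.570 CPM over all libraries and was not called in either condition, with or without library 11. Cxcl17, a mucosal chemokine, had 47 counts in all 16 libraries.

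Several ligands were at a few counts per library, too low for the test. Cxcl13, the B cell chemoattractant, had 41 counts over the 8 lentivirus libraries (0 to 14 per library), 0 over 7 empty-vector libraries and 5 in library 11. Against a floor of 3 counts over the 7 libraries its level was 12.0-fold higher with the lentivirus. In the same way Ccl22, a ligand of Ccr4, had 15 counts with the lentivirus and 0 in all 8 empty-vector libraries (4.39-fold higher against the floor of the 7). Ccl20, the ligand of Ccr6, had 12 counts with the lentivirus, 0 in the 7 libraries (3.51-fold against the floor) and 5 in library 11. These ratios allow for counting error in the empty-vector libraries only. They leave out that of the lentivirus counts and the spread between libraries, so they are not lower bounds.

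**Figure D3:**
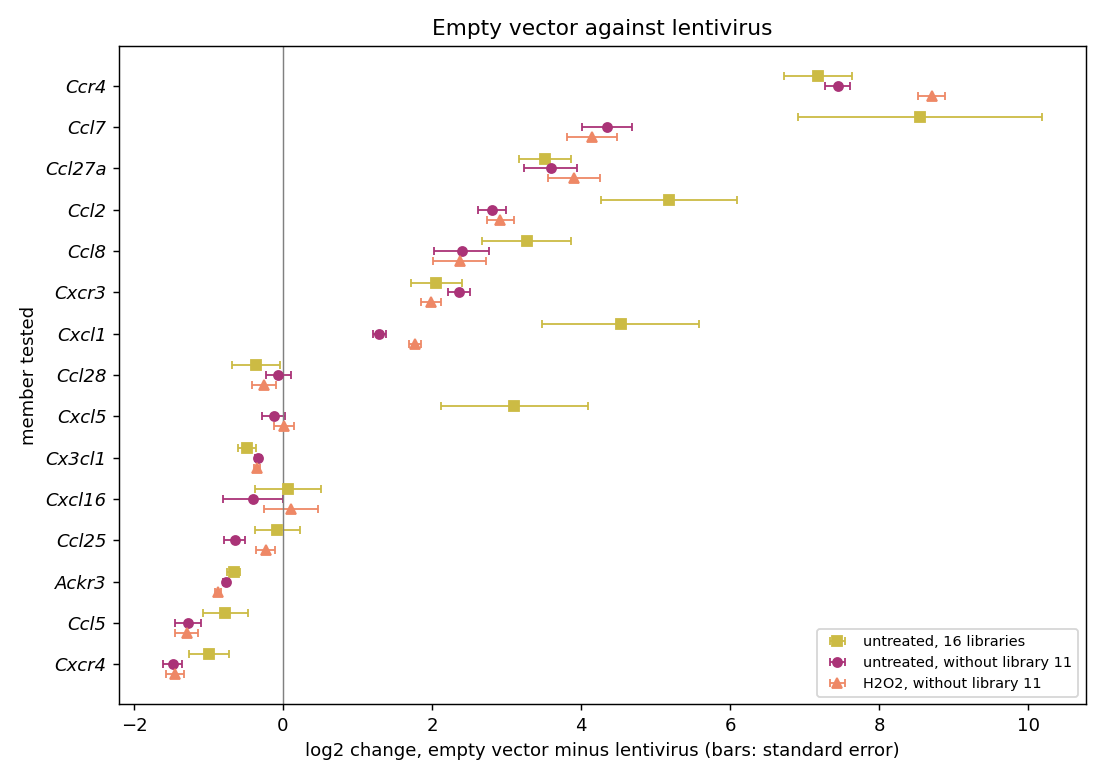
Log2 change (empty vector minus lentivirus) with its standard error for the 15 tested genes: untreated cells with 16 libraries (squares) and without library 11 (circles), and treated cells without library 11 (triangles). Cxcl5 moves from 3.10 to -0.13 when library 11 is left out, while Ccr4, at 7.18, moves to 7.44.

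Among the receptors, Ccr4 differed most. Ccr4, the receptor for Ccl17 and Ccl22 known from helper and regulatory T cells, was at 0.0536, 0.103, 0.0354 and 0.0862 CPM in the untreated lentivirus libraries and at 0, 0.0180, 0.0175 and 0.0636 CPM in the treated ones. With the empty vector it stood at 12.3, 12.1 and 12.8 CPM in libraries 9, 10 and 12, at 4.15 CPM in library 11 and at 12.2, 11.5, 11.9 and 11.9 CPM after H2O2. The transcript was thus nearly absent with the lentivirus, at no more than 6 counts per library, and had 160 counts in library 11 and 667 to 725 counts in each of the other 7 empty-vector libraries. In untreated cells the log2 change was 7.18 ± 0.461 (SE) (edgeR adjusted p = 1.61e-08), and 7.44 ± 0.164 (SE) without library 11 (edgeR adjusted p = 1.79e-18). The treated change was 8.71 ± 0.515 (SE) (edgeR adjusted p = 7.39e-09). It rests on 6 counts in the treated lentivirus libraries, of which library 8 held 4, and was 9.69 without library 8.

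Cxcr3, the receptor for the interferon-induced ligands Cxcl9, Cxcl10 and Cxcl11, was at 0.893, 1.01, 0.760 and 1.08 CPM in the untreated and at 0.922, 1.37, 1.24 and 0.987 CPM in the treated lentivirus libraries. The empty-vector values were 4.83, 4.60 and 4.95 CPM in libraries 9, 10 and 12, 1.19 CPM in library 11 and 4.33, 3.81, 5.36 and 4.49 CPM after H2O2. Apart from library 11, which was just above the untreated lentivirus libraries, all empty-vector libraries were more than 2 CPM above them. In FPKM library 11, at 0.56, lay within the range of the untreated lentivirus libraries (0.5 to 0.7). The untreated log2 change was 2.06 ± 0.338 (SE) (edgeR adjusted p = 1.62e-04), and 2.36 ± 0.146 (SE), or 5.14-fold, without library 11 (edgeR adjusted p = 1.64e-11). The treated change was 1.99 ± 0.334 (edgeR adjusted p = 2.18e-04).

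The pair of receptors that bind Cxcl12 were both lower with the empty vector. Cxcr4, which signals on binding Cxcl12, was at 3.30, 3.68, 2.72 and 3.21 CPM in the untreated and at 2.84, 3.26, 2.95 and 3.04 CPM in the treated lentivirus libraries. It was at 1.09, 1.18 and 1.19 CPM in libraries 9, 10 and 12, at 3.08 CPM in library 11 and at 1.07, 1.26, 1.07 and 1.02 CPM in the treated empty-vector libraries. On this TMM scale library 11 lay inside the lentivirus range, and the other empty-vector libraries lay below it. In FPKM library 11, at 1.39, lay below every lentivirus library (lowest 2.59). The untreated log2 change was -0.99 ± 0.270 (SE) (edgeR adjusted p = 0.00707), and -1.48 ± 0.128 (SE) without library 11 (edgeR adjusted p = 2.56e-09). The untreated call ended with the compared groups alone (edgeR adjusted p = 0.0790). In treated cells the change was -1.45 ± 0.274 (edgeR adjusted p = 5.98e-04).

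Ackr3, the atypical receptor that takes up Cxcl12, was the most abundant receptor transcript of the lentivirus cells per gene length. Its levels were 36.7, 35.4, 35.3 and 34.6 CPM in the untreated and 37.0, 35.2, 35.4 and 35.1 CPM in the treated lentivirus libraries. With the empty vector they were 19.97, 21.97 and 20.7 CPM in libraries 9, 10 and 12, 27.2 CPM in library 11 and 19.4, 18.9, 20.7 and 19.1 CPM after H2O2. The groups did not overlap. The log2 change was -0.66 ± 0.0848 (SE) in untreated cells (edgeR adjusted p = 1.68e-05), -0.76 ± 0.0438 (SE) without library 11, and -0.87 ± 0.0850 (SE) in treated cells (edgeR adjusted p = 1.10e-06).

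Among the chemokine ligands of these receptors, most had few counts. Over all 16 libraries Ccl17 had 5 counts and Ccl22 had 15, Cxcl9 had 7 and Cxcl11 had 5, and Cxcl12 had 3. Cxcl10, the best measured ligand of Cxcr3, had 66 counts over the 8 lentivirus libraries, 34 over 7 empty-vector libraries and 140 in library 11 (3.63 CPM), and Art3 overlaps it in the annotation. On the receptor side, Ccr2, through which Ccl2 acts, had 1 count in all, Cxcr2, through which Cxcl1 acts, had 24, and Cx3cr1, the receptor of Cx3cl1, had 32. Ccr1 had 15 counts, Ccr10 had 23, Ccr3 and Cxcr6 had 1 each, Ccr8 had 2 and Cxcr5 had 22. Ccr7, the receptor that guides cells to lymph nodes, had 3 counts with the lentivirus, 24 in 7 empty-vector libraries and 4 in library 11, and the atypical receptors Ackr2 and Ackr4 had 17 counts and 1 count. Except for Cxcl10 in library 11, these genes had low counts in every library, and the count filter left them out of the test.

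Since Ccr4 and Cxcr3 are best known from T cells, and Ccl2 and Ccl7 from stroma and macrophages, marker genes of those cells were set beside them. Of 5 T cell markers 2 were in the table, and their summed level was 0 CPM in the 7 empty-vector libraries, 0.0259 CPM in library 11 and no more than 0.0361 CPM in the lentivirus libraries. Of the 4 leukocyte markers only Coro1a was tested, and their sum was 0.759 to 1.12 CPM in the 7 empty-vector libraries, 2.83 CPM in library 11 and 1.44 to 2.23 CPM with the lentivirus. The 7 macrophage markers summed to 85.4 to 90.4 CPM in untreated and 87.3 to 99.9 CPM in treated lentivirus libraries. With the empty vector the sum was 236 to 264 CPM in libraries 9, 10 and 12 and 239 to 270 CPM after H2O2, and it was 406 CPM in library 11. The macrophage sum was nearly all Cd68, a lysosomal protein gene, which was called higher with the empty vector together with Cd14 and Itgam. Between the untreated lentivirus and libraries 9, 10 and 12, the mean of Itgam went from 0.0804 to 4.91 CPM. That of Cd14 went from 7.56 to 12.1 CPM and that of Cd68 from 79.9 to 232 CPM. Of the untested macrophage markers, Adgre1 was at 0 CPM in all 8 empty-vector libraries. Csf1r was at no more than 0.0362 CPM except for 14.5 CPM in library 11. Lyz2 and Cd74 were at no more than 0.176 CPM except for 0.622 and 4.35 CPM in library 11. Of the 3 dendritic cell markers, Itgax rose from a mean of 0.0368 CPM with the untreated lentivirus to 3.55 CPM in libraries 9, 10 and 12, and Zbtb46 fell from 9.08 to 6.78 CPM. The 5 fibroblast markers summed to 13.6 to 18.2 CPM with the lentivirus, to 17.0 to 20.4 CPM in 7 empty-vector libraries and to 21.8 CPM in library 11, with 2 called higher and 3 lower. The 4 endothelial markers summed to 79.9 to 85.9 CPM with the lentivirus, nearly all of it Cdh5, to 3.53 to 4.73 CPM in 7 empty-vector libraries and to 7.78 CPM in library 11. Of the 4 neutrophil markers 2 were in the table, and their sum was at most 0.0701 CPM with the lentivirus, 0.159 to 0.283 CPM in 7 empty-vector libraries and 1.87 CPM in library 11. S100a8, the neutrophil marker that was tested, was called higher with a log2 change of 5.09 in untreated cells, 3.28 without library 11. The single B cell marker in the table, Cd79a, was at 0.258 to 0.640 CPM with the lentivirus, 0.0186 to 0.101 CPM in 7 empty-vector libraries and 2.70 CPM in library 11, and it was called lower only without library 11 (log2 change -2.48). The 7 epithelial markers summed to 564 to 618 CPM with the lentivirus, to 921 to 1029 CPM in 7 empty-vector libraries and to 1396 CPM in library 11, and all 3 that were tested were called higher. The macrophage, fibroblast and epithelial calls were the same in both conditions, with and without library 11. Of all genes, 29% were called higher and 24.3% lower in untreated cells, and 37% and 37.3% without library 11. In treated cells the shares were 22.1% and 20%, and 36.6% and 37.2% without library 11. With so few markers per list, nothing is read from their calls. The part of these markers in the chemokine differences between the vectors was not tested.

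Genes of the wider pathway were read against the shares of all genes called. Of 23 tested genes for signalling downstream of the receptors, 14 were called higher and 3 lower with the empty vector in untreated cells (29% and 24.3% of all genes), and 16 and 5 without library 11 (37% and 37.3%). In treated cells 8 and 2 were called (22.1% and 20% of all genes), and 17 and 5 without library 11 (36.6% and 37.2%). Pik3r5, a regulatory subunit of the phosphoinositide 3-kinase that acts after G protein-coupled receptors, rose by a log2 change of 6.52 in untreated cells, 5.66 without library 11, from a mean of 0.137 CPM with the lentivirus to 7.08 CPM in libraries 9, 10 and 12. Pik3cd, the catalytic delta isoform, rose by 3.17 (3.31 without library 11), and Elmo1, which helps to activate Rac during migration, by 0.95 (1.09). In the other direction Rgs2, which shuts off G protein signals, had a log2 change of -2.07 (-2.66) and Dock2, the leukocyte activator of Rac, one of -4.02 (-3.77) at no more than 0.191 CPM in any group mean.

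Of 12 interferon pathway genes, 5 were called higher and 1 lower in untreated cells with 16 libraries (29% and 24.3% of all genes), and 10 and 1 without library 11 (37% and 37.3%). In treated cells the counts were 7 and 1 (22.1% and 20% of all genes), and again 10 and 1 without library 11 (36.6% and 37.2%). Irf7, a regulator of interferon genes, rose by a log2 change of 1.97 (2.28 without library 11). The exception was Irf1, with a log2 change of -0.78 (-0.55). The interferon-induced chemokines themselves, Cxcl9, Cxcl10 and Cxcl11, were among the genes too low to test.

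Of 18 NF-κB genes, 9 were called higher and 1 lower with the empty vector in untreated cells (29% and 24.3% of all genes), and 9 and 3 without library 11 (37% and 37.3%). In treated cells 3 and 1 were called (22.1% and 20% of all genes), and 9 and 6 without library 11 (36.6% and 37.2%). The median log2 change of the list was 0.58 with 16 libraries and 0.10 without library 11 in untreated cells. Of the 5 tested chemokine-related genes with other names, Pf4, which encodes the CXC chemokine platelet factor 4, rose by a log2 change of 1.92 in untreated cells (1.91 without library 11). Rarres2, which encodes the chemoattractant chemerin, had a change of -3.27 (-3.78), and Mif, a cytokine that also binds Cxcr4, one of -0.50 (-0.52). Ccrl2 and Cklf were not called in untreated cells. In treated cells Cklf had a log2 change of 0.41 in both fits. It was not called with 16 libraries (edgeR adjusted p = 0.0817) but was called without library 11 (edgeR adjusted p = 0.00397).

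Among 7 tested proteases known to trim or shed chemokines, 3 were called higher and 2 lower in untreated cells (29% and 24.3% of all genes), and 3 and 3 without library 11 (37% and 37.3%). Anpep, an aminopeptidase that trims chemokine ends, stood at a mean of 88.2 CPM in libraries 9, 10 and 12, 27.8 CPM in library 11 and 0.0318 CPM with the lentivirus, and Adam17, a sheddase of Cx3cl1, rose by a log2 change of 0.44, also without library 11. Of 14 tested proteoglycan and heparan sulphate genes, whose products hold chemokines at the cell surface, 5 were called higher and 5 lower, and 5 and 8 without library 11, against the same shares. The syndecans Sdc1 and Sdc4 rose by log2 changes of 0.98 and 0.87 (0.77 and 0.79 without library 11), while Sdc2 and Sdc3 had log2 changes of -0.90 and -0.88 (-0.74 and -0.65). In treated cells 2 proteases were called higher and 3 lower, and 4 and 6 of the proteoglycan genes, against 22.1% and 20% of all genes. With so few genes in these 2 lists, their counts are given beside the shares of all genes and nothing further is read from them.

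The second comparison asked whether H2O2 changed these genes within each kind of cell. None of the 15 tested genes was called in empty-vector or in lentivirus cells with 16 libraries, where edgeR called 0% of all genes, and none without library 11, where it called 0.123% of all genes higher and 0.116% lower in empty-vector cells and 0% in lentivirus cells. DESeq2 called none either, though with 16 libraries it gave no adjusted p for Cxcl1, Cxcl5, Ccl2 and Ccl7. At an unadjusted p under 0.05, edgeR gave 5 of the 15 genes in empty-vector cells and 0 in lentivirus cells, against 14.7% and 1.77% of all genes, and 2 and 2 without library 11, against 13.7% and 14.6%. The largest fitted changes in empty-vector cells belonged to genes that were high in library 11, an untreated library: Ccl7 had a log2 change of -4.45, Cxcl5 of -3.27, Cxcl1 of -2.99 and Ccl2 of -2.46 (edgeR adjusted p = 0.339 each). Without library 11 these 4 changes were -0.26, -0.04, 0.25 and -0.08 (edgeR adjusted p = 0.714, 0.951, 0.150 and 0.908), and the 15 genes ranged from -0.26 to 0.29.

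Cxcl1 was the gene with the smallest p in this comparison without library 11. All 4 treated empty-vector libraries (9.11 to 10.5 CPM) were above libraries 9, 10 and 12 (8.01 to 8.38 CPM). Cx3cl1 separated in the same way (57.9 to 61.4 against 56.5 to 57.8 CPM), with a log2 change of 0.05 (edgeR adjusted p = 0.657). How many of all genes separate so was not counted. In lentivirus cells the log2 change of Cxcl1 was -0.23 ± 0.0926 (SE, without library 11, edgeR adjusted p = 0.274). The difference between the 2 responses of Cxcl1 was 0.48 ± 0.123 without library 11 and was not called by edgeR (adjusted p = 0.0824), although DESeq2 without library 11 called it at the same size (adjusted p = 0.0201). With 16 libraries the difference was -2.76 (edgeR adjusted p = 0.658). No gene of the 15 was called by edgeR for this difference, for which 0.0685% of all genes were called higher and 0.123% lower without library 11 and 0% with 16 libraries. At an unadjusted p under 0.05 there were 1 of the 15 genes with 16 libraries and 3 without library 11, against 5.95% and 16.4% of all genes. In lentivirus cells Ccr4 had a log2 change of -1.33 after H2O2 (edgeR adjusted p = 1), from 15 to 6 counts over 4 libraries each.

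Library 11 was set against the mean of libraries 9, 10 and 12 as a description of 1 library, with no test. Of the 11603 genes with a mean of at least 1 CPM in libraries 9, 10 and 12, 11 were chemokine or receptor genes. Of these 7 were at least 2-fold higher in library 11, against 15.6% of the 11603 genes, and 2 at least 2-fold lower, against 23.6%. With scaling by total counts in place of the trimmed mean, which gave library 11 a factor of 0.721 against 0.986 to 1.04 elsewhere, 5 were at least 2-fold higher and 3 lower, against 7.52% and 39.2% of all genes. Cxcl2, Cxcl3 and Ccl8 reached a mean of 1 CPM in the untreated empty-vector group only through library 11, so their ratios are given apart from these counts. The ratio was 3048 for Cxcl2, which had 2 to 11 counts in each of the other libraries of its group, and 1018 for Cxcl3, which had 5 to 8. Ccl7 was 70.5 times, Cxcl1 35.0 times, Cxcl5 34.8 times and Ccl2 17.8 times the mean of the other libraries. The 4 chromosome 5 genes Cxcl1, Cxcl2, Cxcl3 and Cxcl5 and the chromosome 11 genes Ccl2, Ccl7 and Ccl8 were thus all higher in library 11, while Cxcl15 and Ccl11 in the same clusters stayed near 0.

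**Figure D4:**
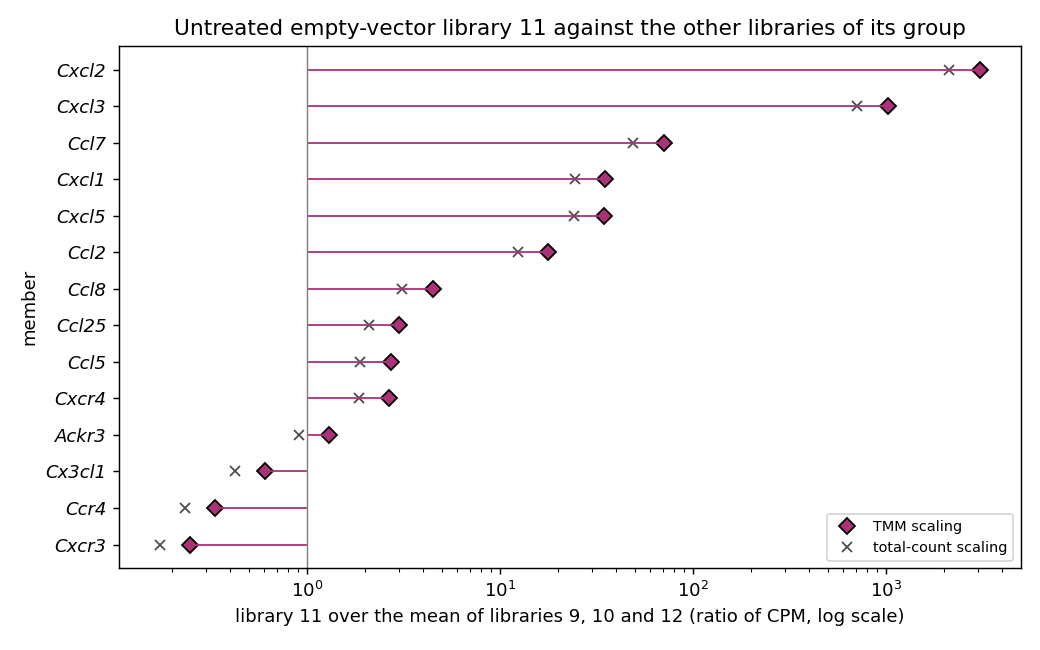
Ratio of library 11 to the mean of libraries 9, 10 and 12 for the 14 genes with a mean of at least 1 CPM over libraries 9 to 12, library 11 included, on a log axis, with TMM scaling (diamonds) and total-count scaling (crosses). Ratios run from 0.249 for Cxcr3 to 3048 for Cxcl2, and Ackr3 falls on either side of 1 depending on the scaling.

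The other genes moved less. Ccl8 was 4.47 times, Ccl25 3.00 times, Ccl5 2.71 times and Cxcr4 2.67 times the mean of libraries 9, 10 and 12, and Ackr3 was 1.30 times it, or 0.906 times with total-count scaling. In contrast Cx3cl1 was at 0.609, Ccr4 at 0.334 and Cxcr3 at 0.249 of that mean. With TMM scaling, Ccl5 and Cxcr4 in library 11 lay within the range of the untreated lentivirus libraries. In FPKM both lay between the vectors, at 6.99 and 1.39 FPKM, so their placement depends on the scaling. Ccr4 lay between the vectors, and the high inflammatory ligands lay far above both. Ccl1, a T cell chemokine ligand of Ccr8, had 34 counts in library 11 and 0 in the other 15 libraries. Chemokine and receptor genes together took 0.113% of the counts of library 11 and 0.0126% to 0.0159% of those of the other libraries.

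By the same 2-fold limit and against the same shares of all genes, library 11 exceeded libraries 9, 10 and 12 in 8 of the 18 NF-κB genes and fell below them in 2, and in 6 and 3 with total-count scaling. The list summed to 2007 CPM in library 11 and to 547 to 591 CPM in the other 15 libraries. Tnfaip3, an early inhibitor of NF-κB signalling that the pathway itself induces, was at 464 CPM in library 11 against a mean of 13.8 CPM in libraries 9, 10 and 12, Nfkbiz at 249 against 11.4 CPM and Nfkbia at 230 against 31.6 CPM. In the other direction Ikbkg, the regulatory subunit of the kinase that activates the pathway, was at 27.9 against 76.4 CPM, and Ikbke, a related kinase, at 17.4 against 37.3 CPM. Epcam and Csf1r were also high in library 11 alone, and its Clic4 level lay between the vectors. What part any of these had in the high ligand levels of library 11 was not tested.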

How the data were processed

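RNA of 6DT1 cells was extracted with a Qiagen kit and sequenced on Illumina libraries, per the labels' protocols. The authors deposited gene counts and FPKM values. Per the submitters' processing notes, cutadapt, STAR and RSEM were used on build mm10. Tool versions and the annotation were not given in the sources used here, nor was strandedness. The deposited whole-number counts may be rounded RSEM estimates. The deposited FPKM values account for gene length and depth.

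Groups came from sample titles. The members and gene lists were chosen with earlier results of these data known. The test was edgeR 4.0.16 (R 4.3.3): TMM scaling, filterByExpr (14445 genes, 14602 without library 11), and 1 robust quasi-likelihood fit of 16 libraries with a coefficient per group. Genes were called at a Benjamini-Hochberg adjusted p under 0.05 over all genes tested. Standard errors are the log2 change divided by the root of F. Values by library are given for members above a group mean of 1 CPM. Alternatives were RLE factors, DESeq2 1.42.0, other count filters, the compared groups alone, voom with quality weights and FPKM with limma 3.58.1, and leaving out each library. DESeq2 and an unfiltered fit without library 11, total-count scaling of the library 11 ratios and their filter on libraries 9, 10 and 12 were chosen after seeing the data. No libraries agreed within sampling noise (lowest chi-square per degree of freedom 5.05). The test was checked on simulated counts that held no outlier library, so the check does not cover the 16-library fit with library 11. Positions are from GENCODE vM21 (mm10), and figures were drawn with matplotlib 3.10.9. Values of a few genes are not reported here.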

Additional observations from a re-analysis of the deposited data

Results flagged for a closer look

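Of 68 sets of 4 libraries (17 genes in 4 groups), 16 held a library far from the other 3 by Dixon's criterion, which chance alone would give in about 1 in 20. In 13 of the 16 the library was library 11. These 13 are readings of 1 library and not separate draws, so they cannot be set against that rate. Cxcl2 and Cxcl3 were among the 17 genes only because library 11 raised their group mean. It was the highest of its group for Ccl2 (585 CPM), Cxcl2 (296 CPM), Cxcl1 (288 CPM), Ccl7 (134 CPM), Cxcl3 (120.03 CPM), Cxcl5 (52.3 CPM), Ccl25 (4.95 CPM), Ccl5 (3.11 CPM), Cxcr4 (3.08 CPM) and Ccl8 (2.54 CPM). It was the lowest for Cx3cl1 (34.9 CPM), Ccr4 (4.15 CPM) and Cxcr3 (1.19 CPM). The other 3 were small departures: Ackr3 in library 5 (37.0 CPM, next 35.4 CPM), Ccl2 in library 7 (5.61 CPM, next 3.74 CPM) and Ccl25 in library 13 (2.30 CPM, next 1.86 CPM).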

How the results depend on the processing

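No paired analysis was possible because the groups share no library numbers. Over all alternatives, members called ran from 8 to 17 in untreated and from 8 to 13 in treated empty vector minus lentivirus. The number of members tested differed, because fits without a count filter also tested members that the filter left out. Calls over all genes moved with the setting too. In untreated cells they were 2430 higher and 1996 lower of 13843 with the compared groups alone, and 5410 and 5436 of 14445 with voom. In treated cells they were 2785 and 1886 of 12937 on log2(FPKM + 0.1), and 5414 and 5502 of 14445 with voom. Members called for the H2O2 responses and their difference stayed at 0, except that DESeq2 without library 11 called 1 difference, Cxcl1. Called changes of Ackr3, Ccl2, Ccl8, Ccl27a, Ccr4 and Cxcr3 kept their direction and call in every alternative that gave an adjusted p; DESeq2 with 16 libraries gave none for Cxcl1, Cxcl5, Ccl2 and Ccl7. Some directions turned with the setting. Cxcl5 in untreated cells was -0.11 with voom, -0.12 with DESeq2 and -0.12 with no filter, both without library 11, and -0.13 to 3.48 leaving out each library. In treated cells it was -0.029 with voom and -0.066 to 0.12 leaving out each library, below 0 without library 5, 15 or 16. The H2O2 response of Cxcl1 in empty-vector cells was 0.23, 0.26 and 0.26 in the same 3 fits (-3.37 to 0.25), and its difference of responses 0.44, 0.48 and 0.48 (-3.13 to 0.48). Ccl25 in untreated cells ran from -0.65 to 0.13, above 0 without library 9, 10 or 12. The Ackr3 ratio of library 11 was 0.906 with total-count scaling. Calls at the edge were lost in some fits: Ccl5 untreated in 14, Ccl7 treated in 15, Cx3cl1 treated in 11, Cxcl5 untreated in 4, and Cx3cl1 and Cxcr4 untreated with the compared groups alone. The cause was not tested. The 30 members that did not pass the count filter were not tested in the main fit. Their results in the alternatives that tested them are not given gene by gene.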
